A study of Homo sapiens with 2 samples.

Results

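The kinetochore is the protein assembly that fastens each chromosome to the microtubules of the mitotic spindle. The data described here cover 42 human genes that encode its centromere base, its outer microtubule-binding layer, the spindle checkpoint that watches attachment, and the mitotic kinases and chromosomal passenger subunits that act there, together with a pair of spindle assembly factors. They were measured in U937 cells, an established human myeloid leukemia line with monocytic features, transduced with TWIST-1, a basic helix-loop-helix transcription factor, or with the empty vector. Total RNA of each condition was hybridised to 1 Affymetrix Human Transcriptome Array 2.0. The study's transduction methods describe sorting of transduced cells by green fluorescent protein. Its array methods do not say whether the cells of the arrays were sorted in this way. A gene was taken from the table row annotated with its symbol alone, which gave 40 of the 42 genes, each from a single row, among 22465 genes measured in all. BUB1B, a checkpoint kinase-like gene, and CENPP, a centromere subunit gene, were listed only together with other symbols and were not analysed here. The comparison asks how the RNA levels of these genes differed between TWIST-1-transduced and vector-transduced U937 cells.

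With 1 array for each condition no replicate error could be had and nothing was tested. An effect of TWIST-1 and a difference between the cultures or the arrays cannot be told apart. The authors deposited log2 values, and each log2 ratio is the value of TWIST-1-transduced cells minus that of vector-transduced cells. A gene was counted as higher or lower when it passed 1.2-fold, the threshold of the study's methods, which is a log2 ratio of 0.26 in size. The number of arrays limits the precision, and the ratios of different rows of the same gene had a pooled SD of 0.069 over the 479 genes with several rows, which is a spread within this pair of arrays and no error between cultures. TWIST1 itself read 4.34 in TWIST-1-transduced and 4.13 in vector-transduced cells, a ratio of 0.21 that is short of 1.2-fold, which is a weak check of the label. Whether the probes of TWIST1 read the introduced sequence was not analysed here. Of 10 myeloid markers 9 were measured and 8 had mean levels not below that of the median gene (a log2 value of 5.19), from LYZ at 11.4 and 11.6 to MPO at 5.64 and 5.48 in TWIST-1-transduced and vector-transduced cells, while CSF1R had a mean of 5.15, just under it. Of the markers of other cell types none of 3 T cell, 2 erythroid and 3 epithelial genes reached that level, but 1 of 2 B cell genes did (CD79A, 5.85 and 5.90) and 1 of 3 endothelial genes (PECAM1, 5.38 and 5.37). Levels of different probes are only roughly comparable. Of the 9 measured myeloid markers, LYZ alone was past 1.2-fold (-0.27), against 2.85% lower and 2.71% higher among all genes.

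In a dividing cell, CENPA, the histone H3 variant of centromeres, marks the site on which a constitutive network of CENP proteins is built. In mitosis that network recruits the NDC80 and MIS12 complexes, which hold the ends of microtubules. Kinetochores without microtubules recruit MAD1L1, MAD2L1, BUB proteins and the kinase TTK, which keep CDC20 from switching on the anaphase-promoting complex until all chromosomes are attached. Many of these genes are transcribed mainly in G2 and M phase, through promoters that carry a cell cycle homology region and CCAAT boxes.

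Most of the 40 genes read lower in TWIST-1-transduced cells, by small amounts. Their log2 values ran from 4.90 to 9.46 (median 6.58) in TWIST-1-transduced and from 4.92 to 9.62 (median 6.73) in vector-transduced cells. The ratio was below 0 for 32 genes and above 0 for 8, with a median of -0.11 and a range from -0.32 to 0.17. At 1.2-fold 5 genes were lower, ZWILCH, CENPW, TTK, CENPE and CENPI, which is 12.5% of the 40, against 2.85% of all genes (4.23% of the brighter ones, those not below the median level). No gene was higher, against 2.71% of all genes (1.66% of the brighter ones). With shares this small, the lack of higher genes among 40 or fewer says little about them. Over all genes the median ratio was 0.04 and 34.8% of ratios were below 0, and over the brighter genes, which hold 38 of the 40, these values were 0.0035 and 46.5%. In RNA from many cells, fewer cells in mitosis and less RNA per cell cannot be told apart. The study reports that U937 cells with TWIST-1 gathered in S phase. How the cell cycle phases bear on these ratios was not tested.

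**Figure D1:**
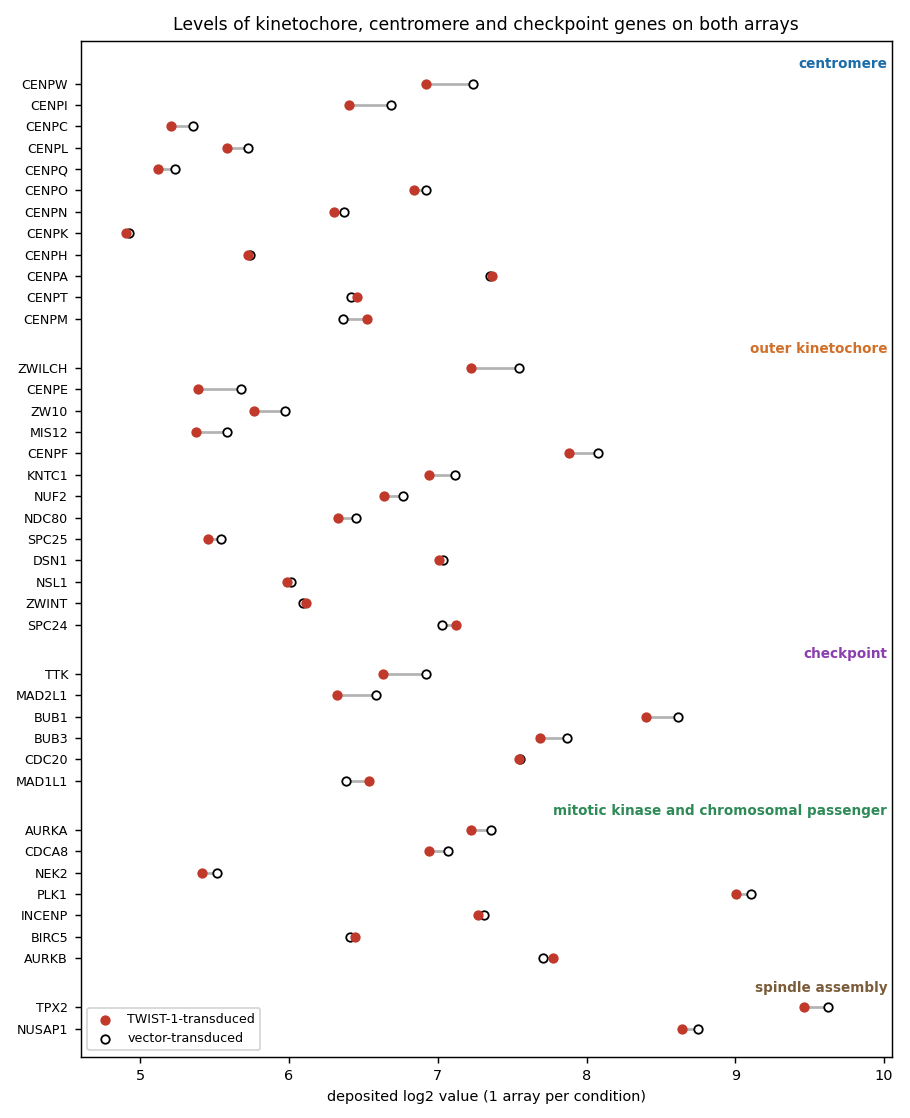
Deposited log2 value (horizontal axis) of each of the 40 measured genes in TWIST-1-transduced (filled points) and vector-transduced cells (open points), 1 array each, ordered by log2 ratio within each role. The filled point lies to the left for 32 genes, and the widest gaps are those of ZWILCH and CENPW (log2 ratios of -0.32).

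The scaling moved these counts by 1 gene at most. With each ratio taken relative to the median gene, 6 genes were lower (4.83% of all genes) and none was higher (1.46%), after loess normalization 6 and none (3.68% and 1.48%), and after a repeated quantile normalization 6 and none (3.36% and 1.59%). At 1.5-fold no gene was lower (0.0979% of all genes) or higher (0.0312%), at 1.1-fold 15 were lower (11.8%) and 2 higher (17.1%), and with an offset of 16 added on the linear scale 2 were lower (1.22%) and none higher (0.369%). At 1.2-fold the gene added under each of the other scalings was MAD2L1, and the 5 lower genes as deposited were lower under all 4 scalings. The ratios of 31 genes were below 0 and those of 5 above 0 under all 4, and those above were CENPM, MAD1L1, SPC24, AURKB and CENPT. The sign of CDC20, CENPA, ZWINT and BIRC5 changed with the scaling, and each of these lay within 0.06 of 0 throughout.

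**Figure D2:**
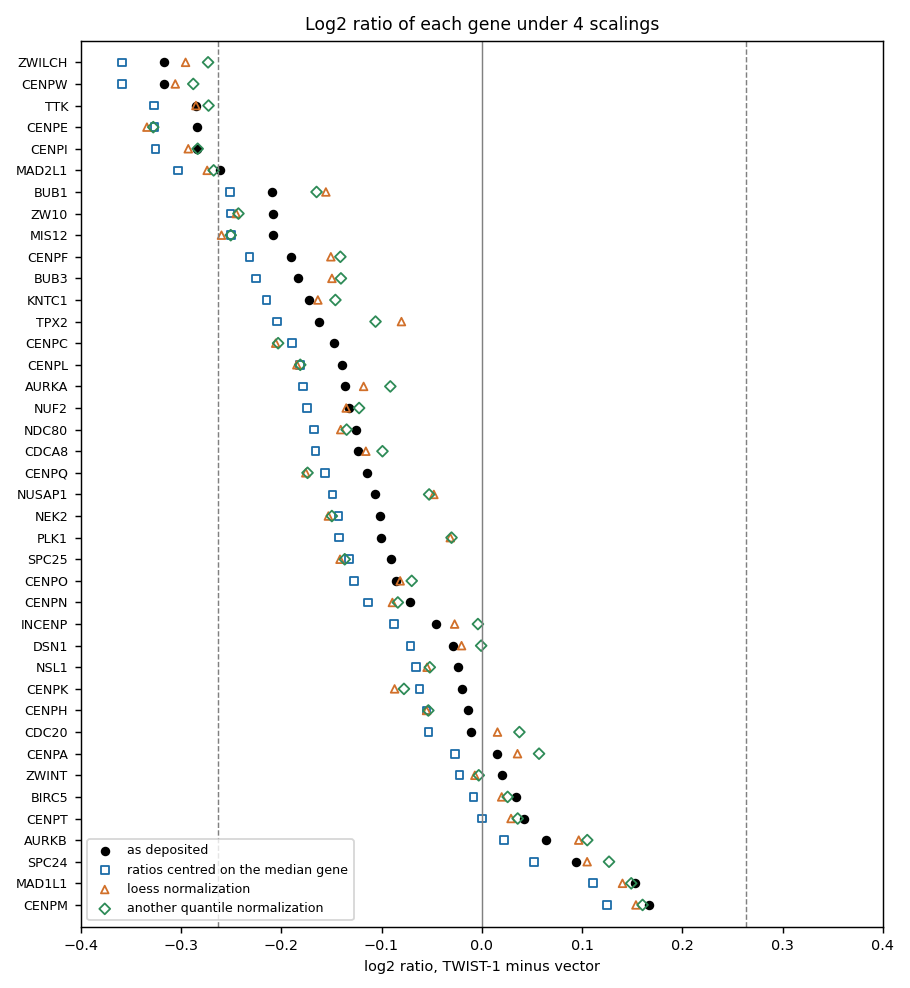
Log2 ratio (TWIST-1 minus vector, horizontal axis) of each of the 40 genes as deposited and under 3 other scalings, with dashed lines at 1.2-fold. ZWILCH, CENPW, TTK, CENPE and CENPI lie beyond the left line under all 4 scalings, and CENPM has the highest ratio as deposited (0.17).

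Of the 13 centromere genes 12 were measured. CENPW and CENPI were past 1.2-fold and none was higher, against 2.85% lower and 2.71% higher among all genes. The median ratio was -0.08. CENPW, a histone-fold protein that pairs with CENPT, read 6.92 in TWIST-1-transduced and 7.24 in vector-transduced cells, a ratio of -0.32 (1.25-fold lower) that ranked 308 from the lowest of all genes. Its partner CENPT read 6.46 in TWIST-1-transduced and 6.42 in vector-transduced cells, so the genes of this pair differed in sign, although CENPT came to 0.0005 when ratios were centred. CENPI, a subunit of the CENP-H/I/K/M group, read 6.40 in TWIST-1-transduced and 6.69 in vector-transduced cells (-0.28, 1.22-fold lower). The other genes of its group did not move with it. CENPH and CENPK had ratios of -0.01 and -0.02, and CENPM had the highest ratio of all 40 genes, with 6.53 in TWIST-1-transduced and 6.36 in vector-transduced cells (0.17). Below 0 and short of the threshold were CENPC (-0.15), which bridges CENPA nucleosomes and the outer kinetochore, and CENPL (-0.14), CENPQ (-0.11), CENPO (-0.09) and CENPN (-0.07). CENPA read 7.37 in TWIST-1-transduced and 7.35 in vector-transduced cells, the highest mean level of the centromere genes.

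All 13 outer kinetochore genes were measured, and 11 had ratios below 0, against 34.8% of all genes. All 13 were among the brighter genes, of which 46.5% had ratios below 0 and 4.23% were lower. Past 1.2-fold were 2 lower genes and none higher (2.85% and 2.71% of all genes), and the median was -0.13. The RZZ complex, which brings dynein and the MAD1L1 checkpoint protein to unattached kinetochores, was low in each of its 3 subunits. ZWILCH read 7.23 in TWIST-1-transduced and 7.54 in vector-transduced cells, a ratio of -0.32 (1.25-fold lower) that ranked 307 from the lowest and was the lowest of the 40. ZW10 read 5.76 in TWIST-1-transduced and 5.97 in vector-transduced cells (-0.21). KNTC1, the large scaffold subunit, read 6.94 in TWIST-1-transduced and 7.12 in vector-transduced cells (-0.17). Over the 4 scalings these 3 ratios ranged from -0.36 to -0.15, and of them only ZWILCH was past 1.2-fold. ZWINT, a link between the outer kinetochore and the RZZ complex, read 6.11 in TWIST-1-transduced and 6.10 in vector-transduced cells.

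CENPE, a kinesin motor that carries chromosomes to the spindle equator, read 5.39 in TWIST-1-transduced and 5.68 in vector-transduced cells (-0.28, 1.22-fold lower). CENPF, a large coiled-coil protein of the outermost layer, read 7.88 in TWIST-1-transduced and 8.07 in vector-transduced cells (-0.19). Within the NDC80 complex, which grips microtubules, NUF2 and NDC80 had ratios of -0.13 each and SPC25 -0.09, while SPC24 was the exception with 7.12 in TWIST-1-transduced and 7.03 in vector-transduced cells (0.09). Of the MIS12 complex, the platform beneath it, MIS12 read 5.38 in TWIST-1-transduced and 5.58 in vector-transduced cells (-0.21), and DSN1 and NSL1 had ratios of -0.03 and -0.02. SPC24 in the NDC80 complex and MIS12 in its own thus stood apart, while the other subunits named here had ratios close to each other within each complex. PMF1 had no row of its own and was not measured.

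The checkpoint genes had the lowest median ratio of the 5 roles as deposited, -0.20 over 6 measured genes. After loess normalization and after a repeated quantile normalization it was -0.15, close to the -0.14 of the outer kinetochore genes under both. TTK, the kinase that starts checkpoint signaling, read 6.63 in TWIST-1-transduced and 6.92 in vector-transduced cells (-0.28, 1.22-fold lower). MAD2L1, whose product binds and holds CDC20, read 6.32 in TWIST-1-transduced and 6.58 in vector-transduced cells, a ratio of -0.26 just short of 1.2-fold. The scaffold kinase BUB1 read 8.40 in TWIST-1-transduced and 8.61 in vector-transduced cells (-0.21), and its partner BUB3 read 7.68 in TWIST-1-transduced and 7.87 in vector-transduced cells (-0.18). MAD1L1, which anchors MAD2L1 at kinetochores, stood on the other side of 0 with 6.54 in TWIST-1-transduced and 6.38 in vector-transduced cells (0.15). CDC20, the target of the checkpoint and an activator of the anaphase-promoting complex, read 7.54 in TWIST-1-transduced and 7.56 in vector-transduced cells.

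Among the 7 genes of mitotic kinases and the chromosomal passenger complex none was past 1.2-fold, against 2.85% lower and 2.71% higher among all genes. With shares this small, the lack of such genes among 7 says little and does not set this role apart. Their ratios spanned -0.14 to 0.06. The median of -0.10 was -0.03 both after loess normalization and after a repeated quantile normalization. AURKA, the centrosome and spindle kinase, read 7.22 in TWIST-1-transduced and 7.36 in vector-transduced cells (-0.14). PLK1, a kinase of mitotic entry and kinetochore attachment, was among the brightest of the 40 genes with 9.00 in TWIST-1-transduced and 9.11 in vector-transduced cells (-0.10, or -0.03 after loess). NEK2, a centrosome kinase, had a ratio of -0.10. The passenger complex corrects faulty attachments through the kinase AURKB, which read 7.77 in TWIST-1-transduced and 7.71 in vector-transduced cells (0.06). Its other subunits CDCA8, INCENP and BIRC5 had ratios of -0.12, -0.05 and 0.03, and the median of the 4 subunits was -0.0059. The spindle assembly factors TPX2, an activator of AURKA, and NUSAP1, a microtubule-bundling protein, were bright and had ratios of -0.16 and -0.11 (TPX2 -0.08 after loess normalization).

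**Figure D3:**
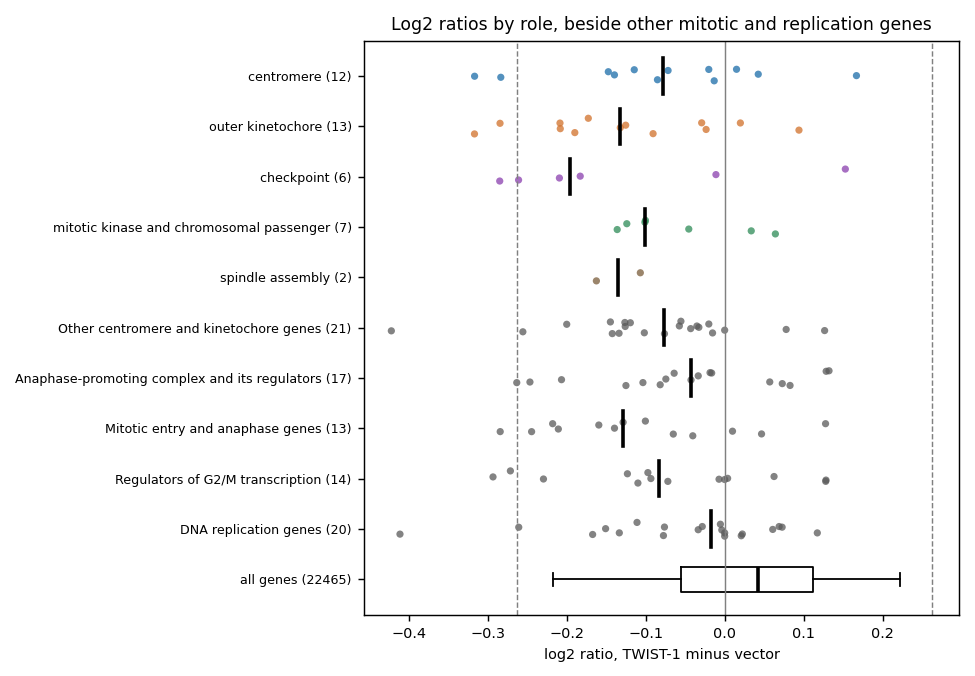
Log2 ratios (TWIST-1 minus vector, horizontal axis) of the genes of each role and of 5 other gene lists, 1 point per gene with the number measured in brackets and a bar at the median, above a box plot of all 22465 genes (box, quartiles; whiskers, 5 to 95 percentiles). Dashed lines mark 1.2-fold. The medians of the 5 roles lie between -0.20 and -0.08, and that of all genes at 0.04.

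Genes of the same machinery outside the 42 are given by lists chosen by role. Counts past 1.2-fold in these lists stand beside 2.85% lower and 2.71% higher among all genes. Of 24 other centromere and kinetochore genes 21 were measured and the median was -0.08. Ratios were below 0 for 18 (34.8% of all genes, 46.5% of the brighter ones). Only OIP5, a subunit of the complex that prepares centromeres for new CENPA, was past 1.2-fold, with 5.45 in TWIST-1-transduced and 5.87 in vector-transduced cells (-0.42). KNL1, the outer kinetochore scaffold that binds BUB1 and BUB3, followed at -0.26, short of the threshold except with centred ratios, and CENPV (0.13) and MAD2L1BP (0.08) were highest. The 13 genes of mitotic entry and anaphase had a median of -0.13, with MASTL, a kinase that restrains a mitotic phosphatase, lower at -0.28, WEE1, the inhibitory kinase of CDK1, at -0.24 and past the threshold only with centred ratios, and CDC25B (0.05) and PKMYT1 (0.13) highest. The anaphase-promoting complex and its regulators had a median of -0.04 over 17 genes. There CDC27 was at the threshold (-0.26, and short of it after loess or a repeated quantile normalization), ANAPC4 had -0.25 (past it only with centred ratios), and UBE2C and FZR1 were highest at 0.13 each.

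Of 14 regulators of G2/M transcription, RBL1 (-0.29) and RBL2 (-0.27), which encode pocket proteins, were lower and the median was -0.08. RBL1 was short of 1.2-fold after a repeated quantile normalization, and RBL2 after that and after loess. LIN37 and MYBL2, subunits of activating or repressing complexes at G2/M promoters, were highest at 0.13 each. The 20 measured DNA replication genes, transcribed earlier in the cycle, had a median of -0.02, with the cyclin gene CCNE2 lower (-0.41), CDC6 just short of the threshold as deposited (-0.26) and past it under the other 3 scalings (-0.30 each), and MCM5 (0.07) and CDC45 (0.12) highest. No gene of these 5 lists was at least 1.2-fold higher under any of the 4 scalings. Of all genes 2.71% were higher as deposited, and 1.46% to 1.59% under the other 3 scalings. With shares this small, the lack of higher genes in lists of this size says little about them.

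Level and gene length moved with the ratio over all genes, and over the 40 genes mainly gene length did. Over all genes the Spearman correlation of ratio with mean level was -0.27, and over the 40 genes it was -0.09, all from the same pair of arrays. Under the loess scaling, which fits a trend with level, the median was -0.12 for the 40 genes and 0.0048 for all genes. A loess median of the brighter genes alone is not given here. The correlation of ratio with the length of the RefSeq gene model was -0.44 over the 40 genes, -0.15 over 22167 genes with a length and -0.30 over the brighter genes. The 20 longer genes, from 29 to 417.2 kb, had a median of -0.15 and 19 ratios below 0. All 5 of the lower genes were among them. The 20 shorter genes, from 4 to 28.9 kb, had a median of -0.05, with 13 below 0. Of all genes, whatever their length, 34.8% had ratios below 0 and 2.85% were lower (46.5% and 4.23% of the brighter ones). Shares by length were not analysed here. MAD1L1, the longest at 417.2 kb, was the only longer gene above 0. The parts of level and of gene length in the ratios were not tested.

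**Figure D4:**
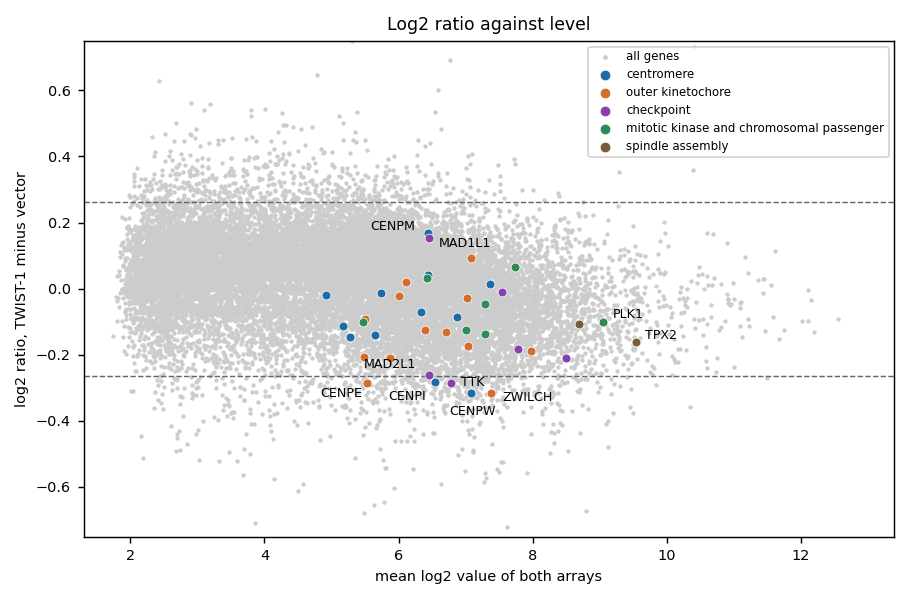
Log2 ratio (TWIST-1 minus vector, vertical axis) against the mean log2 value of both arrays (horizontal axis) for all genes (grey) and the 40 genes by role (coloured), with dashed lines at 1.2-fold; 13 genes beyond 0.75 in either direction are not drawn. The 5 lower genes lie at mean levels from 5.53 to 7.38, and the brightest of the 40, TPX2, has a ratio of -0.16.

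Promoter sequences are shown for 5 genes, chosen as 3 of the 5 lower genes (CENPW, ZWILCH and CENPE), BUB1, a checkpoint gene with a ratio of -0.21, and CDC20, whose level was nearly equal on both arrays. They come from RefSeq on GRCh38.p14, taken at the most upstream start listed for each gene, 5′ to 3′ on the gene's strand, and run from 250 bases before the transcript start to 25 bases from it. Capitals mark a cell cycle homology region (TTTGAA or TTCGAA) or a CCAAT box (CCAAT), on either strand. The windows are chr6:126339865-126340139 (plus strand) for CENPW, chr15:66505076-66505350 (plus strand) for ZWILCH, chr4:103198319-103198593 (minus strand) for CENPE, chr2:110678039-110678313 (minus strand) for BUB1 and chr1:43358731-43359005 (plus strand) for CDC20.
CENPW: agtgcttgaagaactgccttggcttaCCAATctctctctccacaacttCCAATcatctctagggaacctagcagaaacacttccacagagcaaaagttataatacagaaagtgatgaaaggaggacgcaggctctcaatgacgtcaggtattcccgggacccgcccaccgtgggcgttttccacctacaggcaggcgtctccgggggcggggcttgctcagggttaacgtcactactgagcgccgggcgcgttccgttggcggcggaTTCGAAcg
ZWILCH: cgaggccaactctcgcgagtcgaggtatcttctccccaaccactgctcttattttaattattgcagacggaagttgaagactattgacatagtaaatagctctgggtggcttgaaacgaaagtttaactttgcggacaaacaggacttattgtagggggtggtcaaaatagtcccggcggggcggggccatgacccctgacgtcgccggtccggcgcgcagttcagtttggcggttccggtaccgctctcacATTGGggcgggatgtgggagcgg
CENPE: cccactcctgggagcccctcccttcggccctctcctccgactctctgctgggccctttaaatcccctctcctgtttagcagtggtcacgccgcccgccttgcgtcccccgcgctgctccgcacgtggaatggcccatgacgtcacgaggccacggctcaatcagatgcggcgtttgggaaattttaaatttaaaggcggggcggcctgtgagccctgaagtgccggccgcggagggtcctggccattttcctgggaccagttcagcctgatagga
BUB1: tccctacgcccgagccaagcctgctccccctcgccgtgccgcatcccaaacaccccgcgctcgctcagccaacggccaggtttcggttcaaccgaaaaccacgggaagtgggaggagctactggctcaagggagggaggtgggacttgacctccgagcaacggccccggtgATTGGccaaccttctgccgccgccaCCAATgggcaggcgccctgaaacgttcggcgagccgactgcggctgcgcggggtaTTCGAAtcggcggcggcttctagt
CDC20: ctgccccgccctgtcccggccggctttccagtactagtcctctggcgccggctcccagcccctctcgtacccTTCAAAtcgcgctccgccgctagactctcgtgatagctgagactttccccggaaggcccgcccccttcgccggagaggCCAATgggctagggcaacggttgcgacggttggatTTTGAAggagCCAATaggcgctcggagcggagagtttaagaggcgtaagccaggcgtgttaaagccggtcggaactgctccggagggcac

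With the first transcribed base as position 0, the CENPW window holds TTCGAA at 17 and CCAAT at -224 and -202, and the ZWILCH window holds a reverse CCAAT box at 2 and no cell cycle homology region. The CENPE window holds neither motif. BUB1, with TTCGAA at 1 and CCAAT boxes on opposite strands at -79 and -54, and CDC20, with TTTGAA at -65, a reverse match at -178 and CCAAT boxes at -100 and -55, carry both motifs close to the start, and their ratios were -0.21 and -0.01.

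A window of 300 bases, from 250 before to 50 from the start, was found for 31 of the 40 genes, and TTK was among the 9 without an entry. A cell cycle homology region was in 18 of the 31 windows (58.1%), against 16.7% of 27305 genes with a window, a CCAAT box was in 22 (71.0%), against 35.7%, and both were in 15 (48.4%), against 6.63%. TTCGAA reads the same on both strands, and the motifs overlapped each other in 1 window, that of CDCA8. The 18 genes with a cell cycle homology region had a median ratio of -0.12 and the 13 without had -0.03. Of the genes past 1.2-fold, CENPW holds one, while ZWILCH, CENPE and CENPI are among those without. With and without a CCAAT box the medians were -0.10 and -0.09. These are matches to letters in a fixed window and not sites shown to be used, and the window of CENPI starts inside its gene model.

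**Figure D5:**
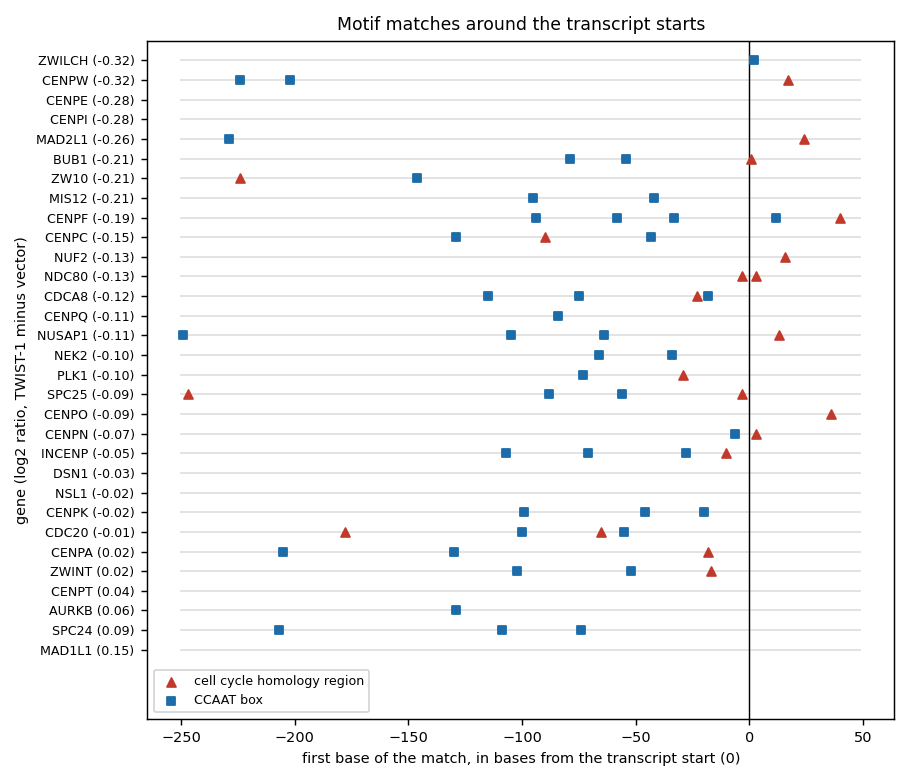
First base of each match to the cell cycle homology region (triangles) and the CCAAT box (squares), in bases from the transcript start (horizontal axis), for the 31 genes with a window, ordered by log2 ratio (in brackets). In all, 18 genes hold a triangle and 22 a square. MAD1L1, SPC24, AURKB and CENPT, which have the highest ratios of the genes shown, hold no triangle. ZWINT and CENPA, the next highest, each hold a triangle, and ZWILCH, CENPE and CENPI, among the lowest, hold none.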

How the data were processed

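RNA from TWIST-1-transduced and vector-transduced U937 cells was profiled on 1 Affymetrix Human Transcriptome Array 2.0 each. The authors deposited quantile-normalized log2 values per transcript cluster (probes of a transcribed locus). Affymetrix Expression Console is named in the submitters' processing notes. Summarisation, background correction and genome build were not given in the sources used here. Sorted values of the arrays differed by up to 0.144, so quantiles were not equal. The median of all entries was 3.97 in TWIST-1-transduced and 3.90 in vector-transduced cells. A repeated quantile normalization moved the median ratio of all genes from 0.042 to 0.010.

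Of 70523 table entries, 23781 carry 1 gene symbol, 1543 several and 45199 are not in the annotation. Symbols were updated through RefSeq (GRCh38.p14) gene identifiers for 21497 entries and kept for 2284. The brightest row stood for a gene. Genes past 1.2-fold were counted without any test. Every measured gene of the set may be named, with the 2 highest and 2 lowest of each other list. Genes and lists were chosen with earlier results of these data known.

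Alternatives were ratios centred on the median gene, cyclic loess (span 0.7, 3 iterations) and repeated quantile normalization over transcript clusters, a filter at the median level of all genes, averaged rows per gene, an offset of 16 on the linear scale, 1.1-fold and 1.5-fold thresholds, and other assignments to roles. The procedure was tested on simulated data. Software was R 4.3.3, limma 3.58.1, Python 3.11.15, pandas 2.3.3, numpy 2.4.6 and matplotlib 3.10.9.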

Additional observations from a re-analysis of the deposited data

How the results depend on the processing

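The number of lower genes, 5 as deposited (2.85% of all genes), was 6 under each of the other 3 scalings (3.36% to 4.83%). It was 5 with dimmer genes left out (4.23% of the brighter genes) and 5 with averaged rows (631 of all 22465 genes). With an offset of 16 it was 2, CENPW and ZWILCH (1.22% of all genes). It was 0 at 1.5-fold (0.0979%) and 15 at 1.1-fold (11.8%). The number of higher genes was 0 throughout except for 2 at 1.1-fold (17.1% of all genes). In the other settings 0.0312% to 2.71% of the genes counted were higher. The offset shrinks every ratio, and more so at lower levels, and the thresholds explain their own counts. With the offset TTK (-0.25), CENPI (-0.24) and CENPE (-0.21) fell short of 1.2-fold. The median of the 40 genes stayed between -0.15 and -0.10. The median of the kinase and passenger genes was -0.030 after another quantile normalization, and that of the spindle assembly genes was -0.064 after loess normalization; the cause was not tested. No gene past 1.2-fold changed sign. Each gene has a single row, so averaged rows equal the brightest row here. No paired analysis was possible because each condition has 1 array and no test was run. The depth of an array is its signal, and a level alone does not say whether a gene was above background.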
